A study of Mus musculus with 175 samples.

Results

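The 9 genes described here are imprinted genes of fetal growth, Igf2, H19, Dlk1, Meg3, Grb10, Igf2r, Peg3, Plagl1 and Mest. They were taken by symbol from the gene annotation of the table, and each symbol matched 1 of its 49585 mouse features. Their reads were examined in single megakaryocyte-erythroid progenitors (MEPs) and common myeloid progenitors (CMPs) of the mouse fetal liver at embryonic day 14.5, sequenced as full-length cDNA by Smart-Seq2. Both progenitors were sorted as lineage-negative Sca1- Kit+ CD16/32 low CD41- CD150+ cells, with MEPs lacking CD34 and CMPs carrying it, and each was divided by a human CD4 reporter of the Runx1 proximal promoter (P2) into P2- and P2+ cells.

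All cells carried the Runx1 reporter, and the embryos came from a C57BL/6 background crossed with ICR. The genotype field of the labels writes the reporter as Runx1 P2-GFP::P2-hCD4/+ and their protocol text as P1-GFP::P2-hCD4/+, so the GFP promoter is uncertain from the labels alone. The CMP labels read low and high, which were taken as P2- and P2+, and 1 P2- CMP has a subtype field that names an MEP. Livers of 2 litters were pooled before sorting, so each of the 4 populations is 1 pool with no replicate and no test between them was possible. Read numbers are therefore given with exact 95% intervals that cover counting error only, and PCR copies of a molecule were not separated from new molecules. After quality filters 172 of 175 cells remained, namely 56 P2- and 47 P2+ MEPs and 27 P2- and 42 P2+ CMPs. A cell had between 295064 and 1540631 reads on mouse genes, with population medians from 520541 in P2- MEPs to 804633 in P2+ CMPs.

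The sorted identities were checked on marker genes. The summed level of 10 erythroid markers, in counts per 1000000 reads on mouse genes (CPM), was 2294 in P2- and 1411 in P2+ MEPs, and 687.4 in P2- and 347.4 in P2+ CMPs. The summed level of 8 granulocyte and monocyte markers ran the other way, at 9.80, 38.6, 290.5 and 536.7 CPM in the same order. Reads of 10 hepatocyte and hepatoblast markers, led by Alb, Afp and Hnf4a and with Serpina1a and Ahsg at 0, were present at 12.4, 14.2, 38.5 and 28 CPM, in 58 of the 172 cells, and this is given beside the members below because fetal hepatoblasts are a known site of Igf2, H19 and Dlk1 expression. The 58 cells were 13 of 56 P2- and 14 of 47 P2+ MEPs, and 10 of 27 P2- and 21 of 42 P2+ CMPs. A single read was enough to mark a cell, so the mark also depends on sequencing depth, which was highest in P2+ CMPs. Leaving out the marked cells is therefore not a removal of identified hepatocytes. Macrophage markers reached at most 1.49 CPM in any population.

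Genomic imprinting is the expression of a gene from 1 parental allele only, set by methylation marks laid down in the germ line. Igf2, Dlk1, Peg3, Plagl1 and Mest are classically expressed from the paternal allele, and H19, Meg3, Igf2r and, in most tissues, Grb10 from the maternal allele. Many paternally expressed members favour fetal growth and several maternally expressed members restrain it, and Dlk1, Igf2 and H19 have been studied in blood stem cells and in the fetal liver that houses them. The counts do not separate the parental alleles, so imprinting itself was not measured.

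The members lie on 6 chromosomes of GRCm38, in the GENCODE M21 annotation used here for positions. Igf2 (7:142650766-142666816) and H19 (7:142575529-142578143) are neighbours on the minus strand, Dlk1 (12:109452823-109463336) and Meg3 (12:109541001-109571726) are neighbours on the plus strand, and Peg3 lies at 7:6703892-6730431. Grb10 lies at 11:11930508-12038683, Igf2r at 17:12682406-12769664, Plagl1 at 10:13060504-13131694 and Mest at 6:30723547-30748465. Since reads were counted without strand, reads on exons shared with another gene of the table could be dropped as ambiguous. Of the exon bases of Mest, 23.1% overlap the antisense gene Copg2, while the overlap is 9.15% for H19, with Mir675 and 2 small RNA models, and 8.29% for Meg3. Dlk1, Grb10, Igf2r and Peg3 overlap no other exon. For Igf2, 62.8% of the exon bases overlap the gene model Gm49394, which the count table does not list, and 1.71% overlap Igf2os, which had 0 reads.

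The 250 bases before a transcription start are shown for 3 members, Dlk1 and Meg3 as neighbours in the genome, with 18 of the 20 Meg3 cells among the 90 Dlk1 cells, and Grb10 as the member read in nearly every cell. The sequences come from RefSeq on GRCm38.p6, run 5′ to 3′ on the strand of the gene, and carry each CG dinucleotide, the target of imprinting methylation, in capitals. The Dlk1 window is chr12:109452573-109452822 on the plus strand, the Meg3 window chr12:109540746-109540995 on the plus strand and the Grb10 window chr11:12037421-12037670 on the minus strand.
Dlk1: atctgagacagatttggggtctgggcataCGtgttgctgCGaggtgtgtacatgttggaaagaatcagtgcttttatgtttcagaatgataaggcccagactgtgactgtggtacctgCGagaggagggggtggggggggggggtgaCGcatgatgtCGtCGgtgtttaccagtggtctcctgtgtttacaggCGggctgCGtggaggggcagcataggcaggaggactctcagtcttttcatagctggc
Meg3: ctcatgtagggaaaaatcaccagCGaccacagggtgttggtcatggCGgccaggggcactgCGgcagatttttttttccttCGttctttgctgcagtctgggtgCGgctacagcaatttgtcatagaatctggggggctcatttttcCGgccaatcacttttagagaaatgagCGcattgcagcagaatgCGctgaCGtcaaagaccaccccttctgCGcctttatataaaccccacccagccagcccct
Grb10: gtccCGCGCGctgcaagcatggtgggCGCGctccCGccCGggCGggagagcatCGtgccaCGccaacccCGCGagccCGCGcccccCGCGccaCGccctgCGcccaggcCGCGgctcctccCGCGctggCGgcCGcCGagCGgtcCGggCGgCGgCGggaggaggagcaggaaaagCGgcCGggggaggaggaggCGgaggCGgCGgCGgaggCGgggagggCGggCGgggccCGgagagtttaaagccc
The Grb10 window shown held 40 CG, more than 98.7% of the 32851 windows of this length in the table, against 8 in the Dlk1 window and 10 in the Meg3 window, where the median of all windows was 6. RefSeq gave a second window for Grb10 with 8 CG and a second for Meg3 with 0. The Igf2r window held 27. RefSeq listed 15 such windows for 8 members, and 13 of them held at least 6 CG. The letters TGTGGT, the core of a RUNX motif, occurred once on either strand in the Dlk1 window and once in the Meg3 window shown, which makes 13.3% of the 15 member windows against 14.05% of all windows.

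H19 also carries a microRNA in its exon sequence. The mature forms of miR-675 are shown in the RNA alphabet with the seed, bases 2 to 8, in capitals, because the host RNA was read in 37 cells while the gene of the microRNA had 0 reads.
miR-675-5p: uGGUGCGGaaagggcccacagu
miR-675-3p: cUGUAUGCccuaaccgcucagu
The miR-675-5p sequence lies at chr7:142577112-142577133 and the miR-675-3p sequence at chr7:142577078-142577099, both on the minus strand. A microRNA is shorter than the fragments of such a library. Reads over the 84 bases that Mir675 shares with H19 exons could also be dropped as ambiguous. The 0 reads of the microRNA gene therefore say nothing of its level. Mir483 in Igf2, Mir770 in Meg3 and Mir335 in Mest likewise had 0 reads.

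Across all 172 cells Grb10 was the most strongly read member. Scaled by the length of the union of exons, its level was 22.8 CPM per kb (22.5 to 23.04), which was 3.56 times that of H19 at 6.41 (6.12 to 6.71). Dlk1 followed at 2.37, Igf2r at 1.21, Igf2 at 0.510, Peg3 at 0.261 and Meg3 at 0.114 CPM per kb. Mest at 0.0369 and Plagl1 at 0.00219 CPM per kb were close to absent. The counting intervals of neighbours in this order did not overlap, but the order differed between populations. In P2- MEPs Grb10 (25.2 CPM per kb) was followed by H19 (2.36), Igf2r (1.71) and Dlk1 (0.572), and in P2+ MEPs Grb10 (29.4) was followed by Dlk1 (1.88), Igf2r (0.840) and H19 (0.335). In both CMP populations H19 was second, at 14.7 CPM per kb against 21.1 for Grb10 in P2- CMPs and at 10.9 against 15.7 in P2+ CMPs. Igf2r and Igf2 had overlapping intervals in P2+ CMPs, at 0.996 (0.892 to 1.11) and 0.947 (0.819 to 1.09) CPM per kb, and in P2- CMPs, at 1.45 (1.28 to 1.65) and 1.09 (0.896 to 1.31). Igf2 and Peg3 overlapped in P2- MEPs, at 0.148 and 0.140, and in P2- CMPs, where Peg3 was at 0.823 (0.713 to 0.945).

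**Figure D1:**
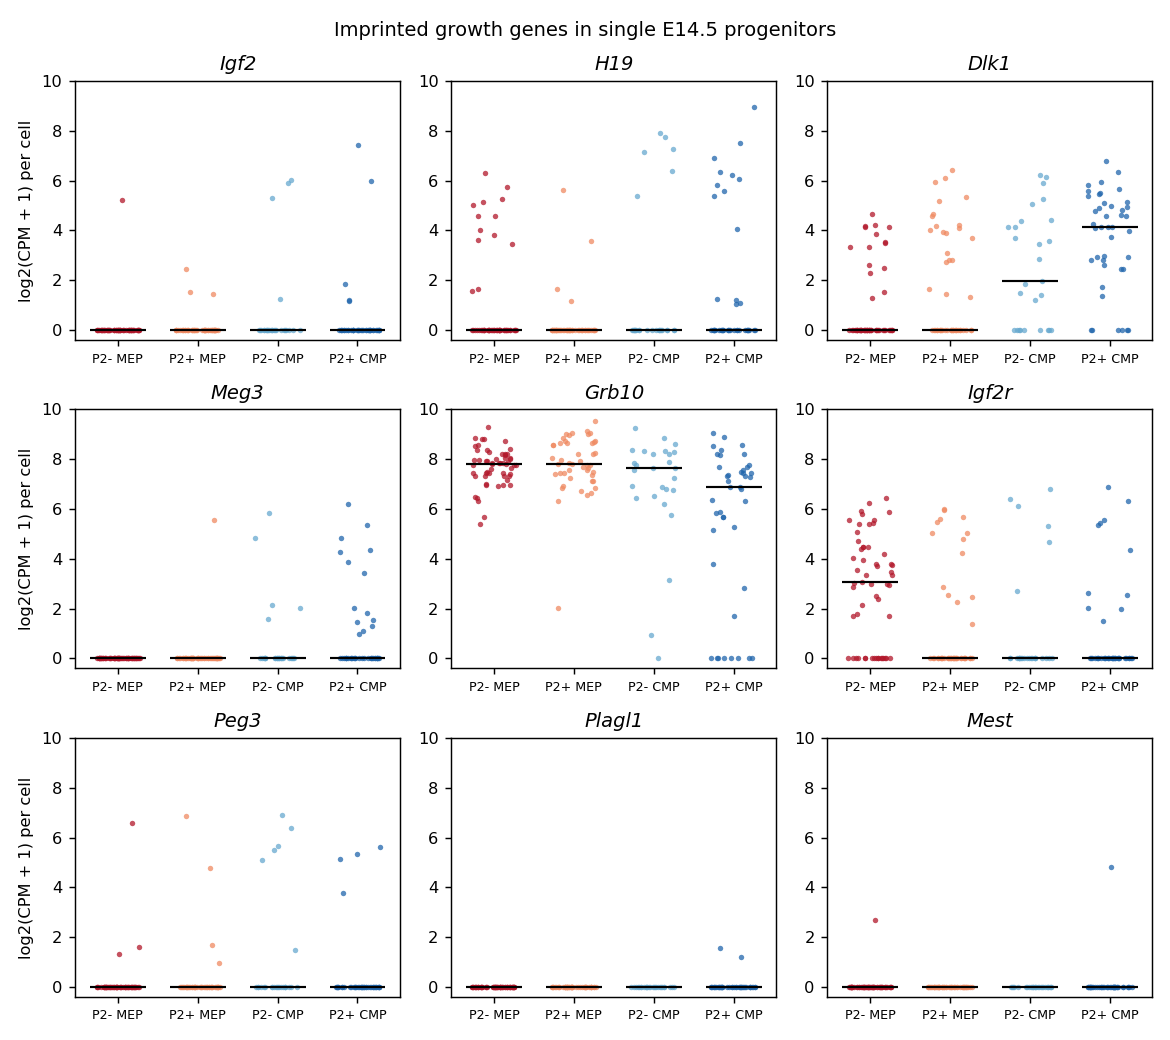
Each point is 1 cell, with log2(CPM + 1) on the vertical axis and the 4 populations on the horizontal axis of each panel, and the black line is the median over the cells. Grb10 was read in 163 of 172 cells, Dlk1 in 90 and Igf2r in 70, while Igf2, Meg3, Peg3, Plagl1 and Mest were read in 20 cells or fewer.

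**Figure D2:**
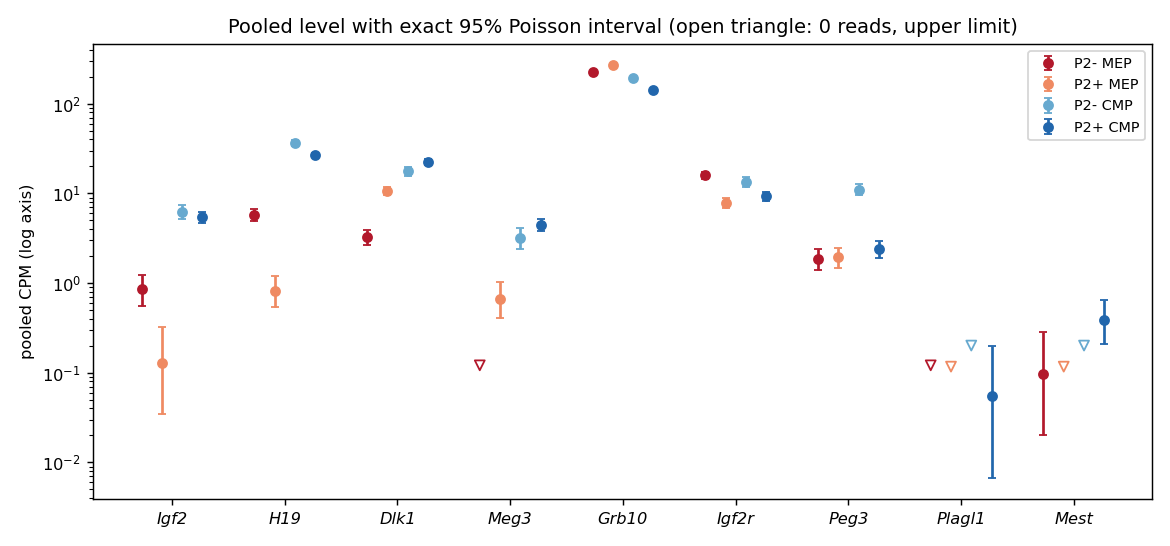
Pooled CPM of each member in each population on a log axis, with exact 95% Poisson intervals for counting error, and open triangles at the upper limit where a population had 0 reads. H19, Igf2, Dlk1 and Meg3 lie higher in both CMP populations than in the MEPs of the same reporter status, and Grb10 lies above 100 CPM in all 4.

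Igf2 encodes the main fetal insulin-like growth factor, and it was read in very few progenitors. Its pooled level was 0.849 CPM (0.555 to 1.24) in P2- and 0.127 (0.0345 to 0.324) in P2+ MEPs, and 6.22 (5.13 to 7.47) in P2- and 5.42 (4.69 to 6.23) in P2+ CMPs. These levels came from 1 of 56, 3 of 47, 4 of 27 and 5 of 42 cells. All 26 reads of the P2- MEPs were in 1 cell, which also had Alb or Afp reads, and 149 of the 197 reads of the P2+ CMPs, 75.6%, were also in 1 cell, at 172 CPM. The median cell held 0 CPM in every population and the ranges of all populations overlapped. After thinning every cell to 100000 reads, the share of cells with an Igf2 read was 1.79%, 2.13%, 11.1% and 7.14%, with overlapping 95% Clopper-Pearson intervals, against 1.79%, 6.38%, 14.8% and 11.9% before thinning.

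H19 is the maternally expressed long non-coding RNA that shares enhancers with Igf2. H19 stood at 5.82 CPM (4.99 to 6.74) in P2- and 0.823 (0.538 to 1.21) in P2+ MEPs, and 36.2 (33.5 to 39.1) in P2- and 26.8 (25.2 to 28.6) in P2+ CMPs. The gene was thus low in P2+ MEPs and high in both kinds of CMP. It was read in 13, 4, 6 and 14 cells in this order, and the median over those cells alone was 22.6, 6.47, 146 and 51.4 CPM. Thinned shares were 21.4% (11.6 to 34.4) of P2- MEPs, 4.26% (0.520 to 14.5) of P2+ MEPs, 18.5% (6.30 to 38.1) of P2- CMPs and 23.8% (12.1 to 39.5) of P2+ CMPs, with all intervals overlapping, against 23.2%, 8.51%, 22.2% and 33.3% unthinned. H19-positive cells were therefore not detectably more frequent in P2- CMPs than in P2- MEPs, and the higher pooled level lay in more reads per positive cell. The highest cells held 78.8, 48.3, 237.1 and 498.4 CPM.

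Reads of Igf2 and H19 fell in the same cells in part. Both were read in 8 cells before thinning, which is 61.5% of the 13 Igf2 cells and 21.6% of the 37 H19 cells, and in 5 cells after thinning. In P2- CMPs 3 of the 4 Igf2 cells had H19, and in P2+ CMPs 4 of the 5, while the only Igf2 cell of the P2- MEPs had H19 and 0 of the 3 Igf2 cells of the P2+ MEPs did. Hepatocyte marker reads were present in 7 of the 13 Igf2 cells and 16 of the 37 H19 cells, with Alb or Afp in 3 and 10 of them. In the cells with no read of the hepatocyte list the H19 level was 5.24 CPM in P2- and 0.828 in P2+ MEPs, and 33.98 in P2- and 34.7 in P2+ CMPs. The value of P2+ CMPs lay above the interval over all cells (25.2 to 28.6), and the log2 ratio of P2+ over P2- CMPs went from -0.43 to 0.03. The Igf2 level there was 0, 0.0460, 6.57 and 10.5 CPM.

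Dlk1, a membrane protein of the NOTCH ligand family that marks fetal and stem-like cells, was graded over the populations. Its pooled level was 3.23 CPM (2.63 to 3.94) in P2- and 10.6 (9.53 to 11.8) in P2+ MEPs, and 17.6 (15.7 to 19.6) in P2- and 22.4 (20.9 to 23.96) in P2+ CMPs, with no overlap of the counting intervals. The lowest cell was at 0 in every population, the median cell at 0, 0, 2.89 and 16.7 CPM, and the highest at 24.5, 84.7, 72.9 and 110 CPM, so that single cells overlapped widely. Unlike H19, the share of positive cells followed the level. After thinning Dlk1 was read in 8.93% (2.96 to 19.6) of P2- MEPs, 31.9% (19.1 to 47.1) of P2+ MEPs, 40.7% (22.4 to 61.2) of P2- CMPs and 66.7% (50.5 to 80.4) of P2+ CMPs. Unthinned shares were 26.8%, 44.7%, 66.7% and 85.7%. The thinned interval of P2- MEPs did not overlap that of either CMP population, nor did P2+ MEPs overlap P2+ CMPs, while the intervals of P2- and P2+ MEPs overlapped narrowly and those of P2- and P2+ CMPs clearly. Without cells that had hepatocyte marker reads the pooled levels were 2.91, 11.4, 20.3 and 23.3 CPM.

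Meg3 is the maternally expressed long non-coding RNA of the Dlk1 locus, and 19 of the 20 cells with its reads were CMPs. It had 0 reads in the 56 P2- MEPs, which allows a share of up to 5.36% at a floor of 3 cells, or 6.38% at the upper end of the Clopper-Pearson interval, and 21 reads in 1 P2+ MEP. That cell gave P2+ MEPs a pooled level of 0.665 CPM (0.412 to 1.02), and the CMPs had 3.16 (2.40 to 4.09) in the P2- and 4.48 (3.82 to 5.23) in the P2+ fraction. It was read in 5 P2- CMPs and 14 P2+ CMPs, or 18.5% and 33.3% before thinning and 7.41% and 21.4% after it. All 14 Meg3-positive P2+ CMPs also had Dlk1 reads, in a population where 36 of 42 cells did. Over all cells the pair was read together in 18, which is 90% of the 20 Meg3 cells and 20% of the 90 Dlk1 cells. Hepatocyte marker reads were present in 6 of the 20 Meg3 cells. Rian, the next maternally expressed RNA of this locus, was likewise at 0 reads in both MEP populations and at 3.55 CPM (1 cell) in P2- CMPs and 6.68 CPM (8 cells) in P2+ CMPs.

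Grb10 encodes an adaptor that binds the insulin and IGF1 receptors and dampens their signalling. It was read in all 56 P2- MEPs and all 47 P2+ MEPs, in 26 of 27 P2- CMPs and in 34 of 42 P2+ CMPs. Pooled Grb10 was at 229.1 CPM (223.7 to 234.5) in P2- and 267.5 (261.8 to 273.2) in P2+ MEPs, and 191.7 (185.4 to 198.1) in P2- and 143.1 (139.2 to 147.0) in P2+ CMPs. The median cell held 226.6, 226.1, 199.8 and 116.1 CPM. The lowest MEPs held 40.9 (P2-) and 3.02 CPM (P2+) and the highest 620.8 and 743.6 CPM, while CMPs reached from 0 to 617.6 (P2-) and 530.6 CPM (P2+), so every pair of populations overlapped. The thinned share was 100% (93.6 to 100) in P2- MEPs and 78.6% (63.2 to 89.7) in P2+ CMPs, without overlap of the intervals. Before thinning 8 P2+ CMPs and 1 P2- CMP had no Grb10 read.

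Igf2r encodes the receptor that takes IGF2 and mannose 6-phosphate-tagged enzymes to the lysosome. Pooled Igf2r was at 15.9 CPM (14.6 to 17.4) in P2- and 7.82 (6.88 to 8.86) in P2+ MEPs, and 13.5 (11.9 to 15.3) in P2- and 9.27 (8.31 to 10.3) in P2+ CMPs. It was read in 39 of 56, 14 of 47, 6 of 27 and 11 of 42 cells. P2- MEPs were thus the population with the most frequent, but not the strongest, Igf2r cells, since the median over positive cells was 12.8 CPM there against 29.5, 54.3 and 19.7 CPM in the others. After thinning the shares were 44.6% (31.3 to 58.5), 25.5% (13.9 to 40.3), 18.5% (6.30 to 38.1) and 19.05% (8.60 to 34.1), with overlapping intervals, against 69.6%, 29.8%, 22.2% and 26.2% unthinned. At 200000 reads per cell or without thinning the intervals of at least 1 pair of populations no longer overlapped. Airn, the paternally expressed antisense RNA that silences Igf2r in cis, was at 5.98, 0.918, 2.29 and 0 CPM, and its reads came from 9 P2- MEPs, 1 P2+ MEP and 1 P2- CMP. Reads were counted without strand, so any Igf2r precursor reads over Airn exons would be counted as Airn.

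Peg3, a paternally expressed zinc-finger protein, was rare. Pooled Peg3 was at 1.86 CPM (1.41 to 2.41) in P2- and 1.93 (1.48 to 2.48) in P2+ MEPs, and 10.96 (9.50 to 12.6) in P2- and 2.39 (1.92 to 2.95) in P2+ CMPs, from 3, 4, 6 and 4 cells. A single cell held 55 of the 57 reads of the P2- MEPs and another 50 of the 61 reads of the P2+ MEPs. Thinned shares were 1.79%, 4.26%, 18.5% and 9.52%, with overlapping intervals. Plagl1, a zinc-finger regulator of an imprinted gene network, had 2 reads in all, 1 in each of 2 P2+ CMPs. Mest, a hydrolase-like protein abundant in fetal mesoderm, had 3 reads in 1 P2- MEP and 14 in 1 P2+ CMP. At 0 reads, the floor of 3 cells allows a share of 6.38% of P2+ MEPs and 11.1% of P2- CMPs for either gene, and the Clopper-Pearson intervals reach 7.55% and 12.8%.

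Of the 7 members read in at least 5 cells after thinning, 3 had share intervals without overlap for at least 1 pair of populations, namely Dlk1, Meg3 and Grb10. Among all 13355 genes read in as many cells this held for 15.6%.

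**Figure D3:**
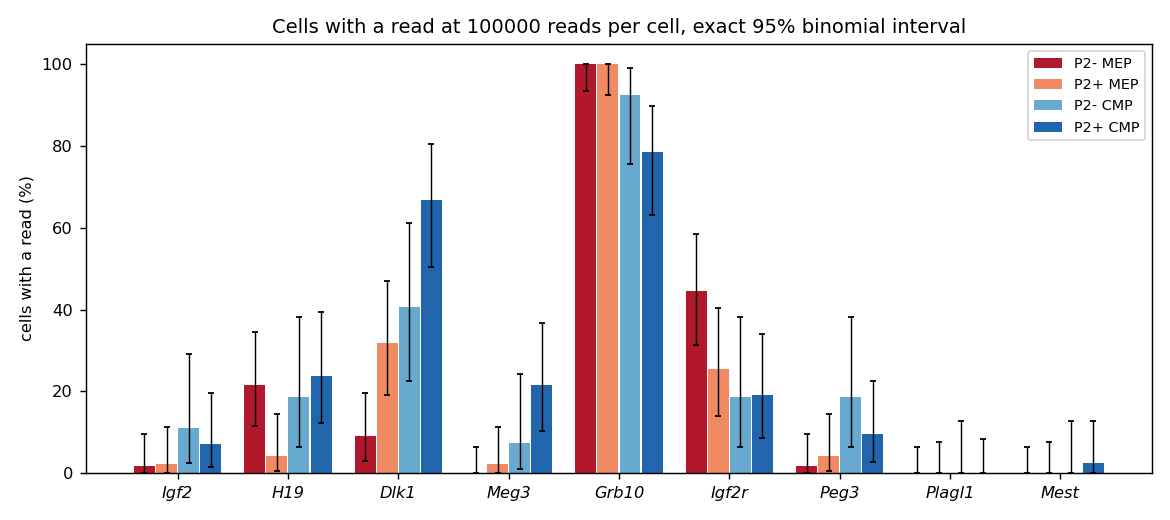
Bars give the percent of cells with at least 1 read after thinning to 100000 reads per cell, and the lines exact 95% binomial intervals. Dlk1 runs from 8.93% of P2- MEPs to 66.7% of P2+ CMPs, and Grb10 from 100% of MEPs to 78.6% of P2+ CMPs.

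Between P2+ and P2- MEPs, the members differed in opposite directions. A gene was compared where it had at least 10 reads and 5 cells with a read over both populations, and called where the pooled levels differed at least 2-fold. A gene can thus pass through the population where it is higher, as H19 did here with 13 P2- and 4 P2+ MEPs. Of the 5 members compared, Dlk1 was higher in P2+ MEPs and H19 and Igf2r were lower. Among all 12956 genes compared 20.8% were called, 13.2% higher and 7.55% lower. Dlk1 was 3.29-fold higher (log2 ratio 1.72, 1.39 to 2.06) and H19 7.06-fold lower (log2 ratio -2.82, -3.47 to -2.22). Igf2r, at a log2 ratio of -1.03 (-1.25 to -0.80), lay at the threshold and was under it in 5 of the other settings tried, which ranged from -1.21 to -0.89. H19 was 13.9-fold lower (-3.80, -4.89 to -2.88) when the highest cell of each population was left out. Grb10 and Peg3 had log2 ratios of 0.22 (0.18 to 0.27) and 0.05 (-0.49 to 0.60). Peg3 rested on single cells, since its value was -2.40 without the highest P2+ MEP and 2.41 (0.21 to 5.62) without the highest cell of each population, when 11 reads stood against 2. The median of the 5 was 0.05, against 0.03 over all compared genes. Igf2, Meg3, Plagl1 and Mest had too few reads or cells.

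Between P2+ and P2- CMPs, 1 of 7 compared members was called. Among all 12884 genes compared 18.9% were called, 9.896% higher and 8.96% lower. Peg3 was 4.58-fold lower in P2+ CMPs (log2 ratio -2.20, -2.58 to -1.83) on reads from 6 and 4 cells, and it was lower also without the highest cell of each population, at -2.27. The highest of all, with 76 of the 201 reads of the P2- CMPs, was the P2- CMP whose subtype field names an MEP, and without it the value was -1.56. Without the cells with hepatocyte marker reads its log2 ratio was -2.60, but with 4 positive cells it missed the minimum of 5, so that no member was called. The other log2 ratios were -0.55 for Igf2r, -0.43 for H19, -0.42 for Grb10, -0.20 for Igf2, 0.35 for Dlk1 and 0.50 for Meg3, and the median of the 7 was -0.42 against -0.02 over all compared genes. Several of these depended on single cells or on the cells with hepatocyte reads. Igf2 was at -2.20 without the single highest cell of both populations, at -1.41 without the highest of each and at 0.68 without the cells with hepatocyte reads. H19 was at -1.07, -0.51 and 0.03 in the same settings and Meg3 at -0.11, 0.95 and 0.91. Grb10 moved to 0.29 without the cells with hepatocyte reads.

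Between the progenitor types, the members were mostly higher in CMPs. In P2- CMPs against P2- MEPs 5 of 7 compared members were at least 2-fold higher and 0 were lower, where 30.01% of all 12762 compared genes were called, 19.03% higher and 10.99% lower. Igf2 (4 CMPs and 1 MEP), Meg3 (5 and 0) and Peg3 (6 and 3) reached the minimum of 5 cells only through the CMPs, where they were higher. Their place among the 7 is therefore not independent of their direction. Igf2 was 7.32-fold higher (log2 ratio 2.87, 2.25 to 3.55), H19 6.23-fold (2.64, 2.40 to 2.89), Peg3 5.89-fold (2.56, 2.13 to 3.01) and Dlk1 5.43-fold (2.44, 2.11 to 2.78). Meg3, with 0 reads in P2- MEPs, was at least 32.3-fold higher with those set to 3 reads over the population. Grb10 and Igf2r had log2 ratios of -0.26 (-0.32 to -0.20) and -0.24 (-0.46 to -0.01). The median of the 7 was 2.56 against 0.05 over all compared genes. Without the single highest cell of both populations 3 members were called, H19 at 2.07, Dlk1 at 2.26 and Peg3 at 1.92, where the Peg3 cell left out was the P2- CMP of conflicting label. Igf2 and Meg3 then had fewer than 5 positive cells, with log2 ratios of 2.08 and at least 3.95. Without the highest cell of each population the same 3 members were called, H19 at 2.45, Dlk1 at 2.46 and Peg3 at 6.73 (4.85 to 9.79), the last on 125 reads against 2. Without the cells with hepatocyte reads H19 (2.70) and Dlk1 (2.80) were called. Igf2, Meg3 and Peg3 then missed the minimum of cells, with log2 ratios of at least 5.72, at least 4.72 and 2.26, each still past 2-fold.

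In P2+ CMPs against P2+ MEPs 4 of 7 compared members were at least 2-fold higher and 0 were lower, where 27.4% of all 13294 compared genes were called, 16.2% higher and 11.3% lower. Here too Igf2 (5 CMPs and 3 MEPs), H19 (14 and 4) and Meg3 (14 and 1) reached the minimum of 5 cells only through the CMPs. Igf2 was 42.8-fold higher (log2 ratio 5.42, 4.04 to 7.31), H19 32.6-fold (5.03, 4.47 to 5.65), Meg3 6.74-fold (2.75, 2.09 to 3.48) and Dlk1 2.10-fold (1.07, 0.89 to 1.26). Without the single highest cell of both populations these were 3.42, 4.39, 2.14 and 0.95, so that Dlk1 lay just under 2-fold, and Peg3 moved from 0.31 to 2.76. With DESeq2 size factors Dlk1 was also just under 2-fold, at 0.98. Without the highest cell of each population Igf2 was at 4.40 (2.46 to 7.48), H19 at 5.75, Meg3 at no less than 4.92, Dlk1 at 1.22 and Peg3 at 2.05. Without the cells with hepatocyte reads H19 was at 5.39, Meg3 at 2.68 and Dlk1 at 1.04. Igf2 then had 4 positive cells and was not compared, with a log2 ratio of 7.84 (5.35 to 13.15) on 195 reads against 1. Peg3, with as few cells, had a log2 ratio with an interval of 0.95 to 3.18. Grb10 had a log2 ratio of -0.90 (-0.95 to -0.85), or 1.87-fold lower, and Igf2r of 0.24 (0.00 to 0.49). The median of the 7 was 1.07 against -0.01 over all compared genes. The 4 comparisons share populations in pairs and are not independent of each other.

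**Figure D4:**
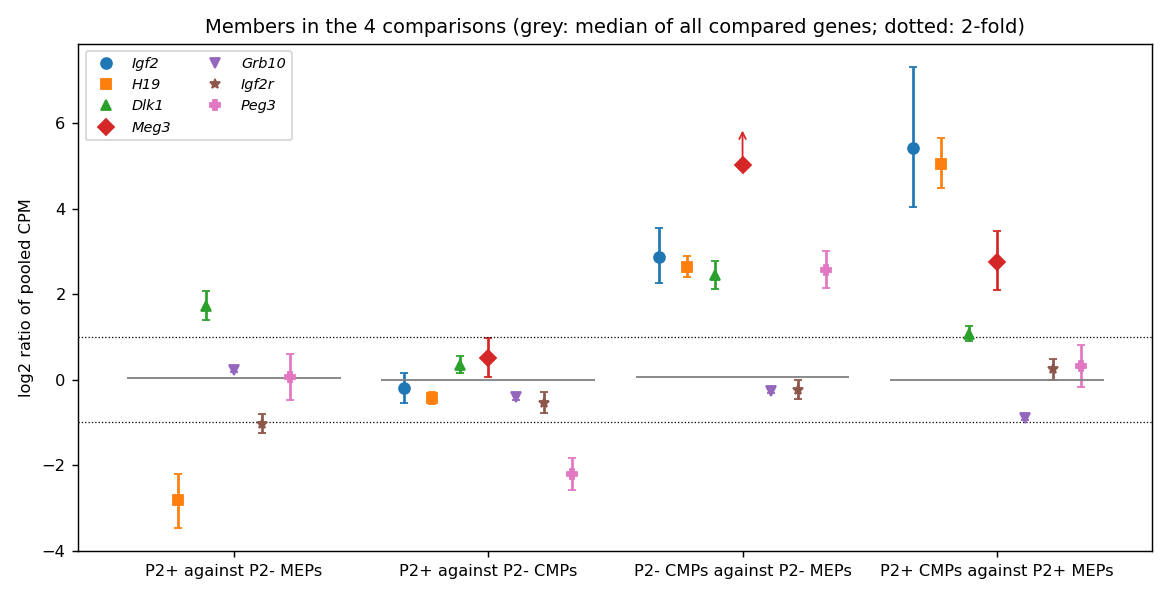
Log2 ratios of pooled CPM of the compared members in the 4 comparisons, with exact 95% intervals for counting error, an arrow for a lower bound, grey lines at the median of all compared genes and dotted lines at 2-fold. H19, Igf2, Dlk1 and Meg3 lie above 2-fold in both comparisons of CMPs with MEPs, and Grb10 and Igf2r do not.

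Genes whose level over the 172 cells was most like that of a member were sought among 8047 genes for Dlk1, Grb10 and Igf2r, which were read in at least 25% of the cells of a population after thinning. For Dlk1 these were Adgrl4 (Spearman rho 0.50), Cd34 (0.48), the surface protein of the CMP gate, and Rbpms (0.46). Within P2+ CMPs the rho was -0.01, -0.02 and 0.20, within P2- CMPs 0.46, 0.31 and 0.46, and within P2+ MEPs 0.16, 0.38 and 0.01. Cd34 itself was at 0.0327, 13.05, 274.3 and 540.8 CPM in the order of the populations above, the same order as Dlk1. For Grb10 the most alike were Gm15915 (0.36), mt-Nd2 (0.36) and Snhg17 (0.35), and for Igf2r Epor (0.35), the erythropoietin receptor, Emc9 (0.35) and Acsl5 (0.33). Within the populations the rho ran from 0.09 to 0.29 for Gm15915, 0.06 to 0.34 for mt-Nd2 and 0.17 to 0.52 for Snhg17. It ran from 0.15 to 0.58 for Epor, -0.13 to 0.37 for Emc9 and 0.15 to 0.37 for Acsl5. Epor was at 181 CPM in P2- MEPs and 22.8 in P2+ CMPs. H19 and Meg3 reached 25% of the P2+ CMPs only before thinning and were left with 29 and 12 positive cells after it. The genes past a rho of 0.3 were Lsp1 (0.30) for H19 and Coro2a (0.38), Fscn1 (0.35) and Lst1 (0.34) for Meg3, and so few positive cells allow no finding. These are descriptions over cells that share pools, and depth and population both enter them.

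Other imprinted genes were examined on lists of 22 paternally and 19 maternally expressed genes, although many are imprinted in some tissues only. Of these, 16 and 14 had reads. In P2- CMPs against P2- MEPs 4 of 11 compared paternal genes were higher and 2 lower, and 4 of 9 maternal genes were higher and 1 lower, where 19.03% of all compared genes were higher and 10.99% lower. In P2+ CMPs against P2+ MEPs 3 of 10 paternal genes were higher and 0 lower, and 3 of 11 maternal genes were higher and 2 lower, beside 16.2% and 11.3% of all genes. Cdkn1c, the maternally expressed inhibitor of cyclin-dependent kinases known from stem cell quiescence, was at 1.11 CPM in P2- and 0.792 in P2+ MEPs, and 8.51 in P2- and 13.6 in P2+ CMPs. Like Dlk1, the paternal genes Peg13 (0.948, 11.3, 29.4 and 33.3 CPM) and Sgce (3.95, 8.93, 15.9 and 18.95 CPM) followed the order of the populations. Ndn, which encodes necdin, a growth suppressor, was at 1.40, 27.6, 20.6 and 49.6 CPM, read in 1, 10, 4 and 24 cells. Trappc9 was at 12.5, 11.4, 40.4 and 35.4 CPM. Between P2+ and P2- MEPs 4 of 12 paternal genes were higher and 2 lower, and 1 of 9 maternal genes was higher and 0 lower, beside 13.2% and 7.55% of all genes. Between P2+ and P2- CMPs the paternal list had 1 of 10 higher and the maternal list 1 higher and 1 lower of 11, beside 9.896% and 8.96% of all genes.

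**Figure D5:**
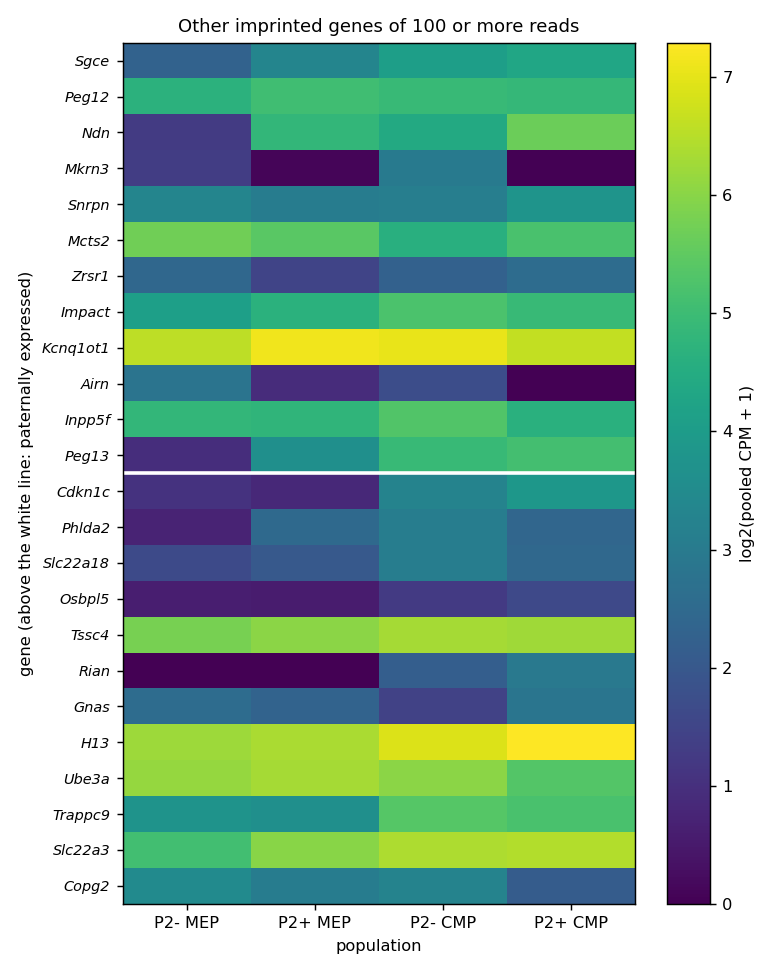
Colour gives log2(pooled CPM + 1) of the 24 other imprinted genes with at least 100 reads, one row per gene and one column per population, with 12 paternally expressed genes above the white line. Peg13, Sgce and Cdkn1c are brighter in CMPs than in P2- MEPs, and Kcnq1ot1, H13 and Tssc4 are bright in all 4 populations.

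Among the partners of the members in IGF signalling, the receptor genes Igf1r and Insr were read in all 4 populations, while many ligand and binding protein genes had no read. Igf1r, the receptor for IGF1 and IGF2, was at 41.1, 72.3, 88.1 and 48.5 CPM in P2- and P2+ MEPs and then P2- and P2+ CMPs, and Insr at 10.9, 22.7, 27.5 and 26.8 CPM. Of 6 ligands, receptors and insulin genes, 3 had reads, and Igf1 was read in 1 P2+ MEP and in 3 cells of each CMP population. Of 8 IGF binding proteins 3 had reads and only Igfbp4 was compared. Igfbp4 followed the order of Dlk1 at 24.2, 56.2, 168.1 and 237.5 CPM. It was called higher in P2+ than in P2- MEPs (log2 ratio 1.22) and in both comparisons of CMPs with MEPs (2.80 and 2.08). Among the 3 IGF2 mRNA-binding proteins, Igf2bp1 and Igf2bp3 were between 65.6 and 99.1 CPM in every population, while Igf2bp2 was at 12.2, 36.6, 81.5 and 73.0 CPM.

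On the NOTCH side, to which DLK1 belongs by structure, 11 of 12 listed genes had reads and 5 or 6 were compared. Notch1 was at 0.849 CPM in P2- and 3.99 in P2+ MEPs, and 22.5 in P2- and 25.5 in P2+ CMPs, and was read in 1, 2, 10 and 18 cells. It was called higher in both comparisons of CMPs with MEPs, at log2 ratios of 4.73 and 2.68. Notch2 was read in nearly all MEPs, at 75.4 CPM in P2- and 66.4 in P2+ MEPs, was at 62.3 and 25.4 CPM in the CMPs, and was called lower in P2+ CMPs against P2- CMPs and against P2+ MEPs. Of the list, 2 of 5 genes were higher (Notch3 and Jag2) and 1 lower (Jag1) in P2+ against P2- MEPs, where 20.8% of all genes were called, and 0 of 5 higher and 2 lower (Notch2 and Notch3) in P2+ against P2- CMPs (18.9%). In P2- CMPs against P2- MEPs 2 of 5 were higher (Notch1 and Notch3) and 1 lower (Jag1), beside 30.01%, and in P2+ CMPs against P2+ MEPs 1 of 6 was higher and 1 lower, beside 27.4%. Notch3, Jag1 and Jag2 were at 4.56 CPM or less in every population. Endothelial and mesenchymal markers were counted as well. The 8 endothelial markers summed to 9.74, 31.9, 152.8 and 237.8 CPM and followed the order of Dlk1. They were read in 24 of 56, 23 of 47, 21 of 27 and 40 of 42 cells. The sums of the granulocyte and monocyte, the megakaryocytic and the stem and multipotent markers given above ran in the same order. The paper lists Tek among candidate surface markers for separating P2- and P2+ MEPs. In the CMPs Esam (74.4 and 129 CPM), Emcn and Tek made up most of the sum, in P2+ MEPs Tek (21.4 CPM), and in P2- MEPs Plvap (8.04 CPM). Cdh5, Kdr, Stab2 and Lyve1 were each at no more than 1.79 CPM in any population. Stellate and mesenchymal markers summed to 11.7, 23.2, 11.8 and 7.43 CPM, which is not the order of Dlk1. The part of these reads in the levels of the members was not tested.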

How the data were processed

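Single cells of 4 sorted populations were sequenced by Smart-Seq2. Raw counts for each gene in each cell were deposited by the authors, who used Trimmomatic 0.36, STAR 2.4.2a on GRCm38 with ERCC sequences and HTSeq 0.6.1p1 on GENCODE M12 exons without strand. The deposited percent of unmapped reads per cell, by the authors, served as a filter. Cells needed at least 250000 reads, at most 25% unmapped reads and at most 15% ERCC reads, as in the study's methods. The 5 HTSeq tally rows were left out. Of the uniquely mapped reads, 25.6% matched several genes and 7.395% no gene, and neither entered the counts.

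Pooled levels (CPM) are the counts of all cells of a population over their reads on mouse genes. No pseudocount entered the log2 ratios, and 0 reads were replaced by 3 for a bound. Intervals were exact Poisson, conditional binomial and Clopper-Pearson (Python 3.11.15, scipy 1.17.1). Size factors of DESeq2 1.42.0 were an alternative. The ratio step was tested on simulated data. Groups came from the sample labels. The members and gene lists were chosen with earlier results of these data known. Named genes were the 9 members and the 3 genes most alike to a member (rho of at least 0.3). Such a member was read in at least 25% of the cells of a population, before or after thinning. From each list at most 6 called genes were named, not always those with the most reads. Uncalled genes of the lists (Igf2bp1, Igf2bp3, Kcnq1ot1, H13, Tssc4) were named for context after their values were seen. The same holds for the uncalled marker genes Plvap, Cdh5, Kdr, Stab2, Lyve1, Serpina1a and Ahsg.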

Additional observations from a re-analysis of the deposited data

Results flagged for a closer look

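Grb10 had log2 ratios of opposite sign between P2+ and P2- cells of the 2 progenitor types, 0.22 (0.18 to 0.27) in MEPs and -0.42 (-0.48 to -0.36) in CMPs. The intervals cover counting error only, the difference between the types was not tested, and without the cells with hepatocyte marker reads the values were 0.14 and 0.29, of the same sign.

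Reads of Grb10 also occurred in a cell that the comparisons did not use. A P2+ MEP removed for 27.9% unmapped reads held 97 reads of Grb10 among 315322 reads on mouse genes, or 307.6 CPM, within the range of the P2+ MEPs kept (3.02 to 743.6 CPM).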

How the results depend on the processing

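Of the 196 recomputed member ratios, 141 stayed within the counting interval and 55 moved, and no ratio at or past 2-fold in the report changed sign. Of the 26 compared ratios, 7 crossed or, as rounded values, reached the 2-fold line under at least 1 of the 8 settings. Grb10 in P2+ CMPs against P2+ MEPs did so only with equal weight for every cell. Its rounded ratio then lay on the line, but Grb10 was not called, so it did not cross. The settings without cells with hepatocyte marker reads and without the highest cell of each population were chosen after seeing the data. The counts that follow are of members called, which needs both the minimum of reads and cells and a 2-fold difference. Under the first setting they numbered 0 in P2+ against P2- CMPs (1 in the report) and 2 in P2- CMPs against P2- MEPs (5), and 2 and 3 in the remaining comparisons. Peg3 in the former (-2.60) and Igf2 (at least 5.72), Meg3 (at least 4.72) and Peg3 (2.26) in the latter were still past 2-fold but had fewer than 5 cells. Without the single cell of highest CPM over both populations, 3 members were called in P2+ against P2- CMPs (Igf2, H19 and Peg3) and 3 in P2- CMPs against P2- MEPs, where Igf2 (2.08) and Meg3 (at least 3.95) missed only the minimum of cells. Without the highest cell of each population the numbers were 2 (Igf2 and Peg3) and 3, and the ratio of Peg3 in P2+ against P2- MEPs, not called in the report, lay at 2.41 in place of -2.40. With no minimum of reads or cells the numbers were 5 in P2+ against P2- MEPs (3) and 2 in P2+ against P2- CMPs. At 50 or more reads and 10 or more cells 4 members were compared in P2- CMPs against P2- MEPs and 2, H19 and Dlk1, were called, while the ratios themselves do not change with this minimum. Without the P2- CMP of conflicting label Peg3 was at -1.56 in P2+ against P2- CMPs and at 1.92 in P2- CMPs against P2- MEPs, and the same number of members was called in both. Beyond the minimum, the cause was not tested.

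Per mean transcript length in place of union exons, Grb10 was 8.07 times the next member (3.56) in the same order of genes. Cells with both Igf2 and H19 numbered 8 without thinning (5). Members with non-overlapping share intervals for at least 1 pair of populations numbered 3 (Dlk1, Meg3 and Grb10), 2 at 50000 reads per cell (without Meg3) and 4 at 200000 reads or without thinning (with Igf2r), where between 14.8% and 15.6% of all genes did so. Among all genes called between P2+ and P2- MEPs, 63.7% were higher, and 53.5% without the highest cell. No paired analysis was possible because each population is 1 pool and the cells carry no pairing. At 0 reads the exact Poisson interval of a member reaches 0.117 to 0.201 CPM, where the floor of 3 reads used for bounds is 0.09502 to 0.164 CPM, and low members at these depths rest on few cells.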

Other observations

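Of 17 listed adaptors and mediators of the insulin and IGF receptors other than Grb10, 12 had reads. Irs2, which links the receptors to PI3-kinase, was at 21.7 CPM in P2- and 18.1 in P2+ MEPs, and at 0 in P2- and 1.49 in P2+ CMPs, with the last from 1 cell. In P2+ CMPs against P2+ MEPs 1 of 12 compared genes was higher and 3 were lower, with Irs2 at a log2 ratio of -3.61 (-4.04 to -3.20), where 27.4% of all genes were called. In P2- CMPs against P2- MEPs 2 of 12 were higher and 1 was lower, where 30.01% of all genes were called.

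The 4 genes of mannose 6-phosphate sorting, the pathway that IGF2R serves beside IGF2 uptake, were compared in all 4 comparisons and had 1 call, Gnptg higher in P2+ than in P2- CMPs, where between 18.9% and 30.01% of all genes were called per comparison. Factors that protect imprinting marks in the embryo, 6 genes of which 3 were compared, had 0 calls at 2-fold in any comparison, which says little for 3 genes beside these shares. Of 8 p53 and cell cycle genes linked to PLAGL1 and PEG3, Cdkn1a was called higher in P2+ than in P2- MEPs and in P2- CMPs than in P2- MEPs, and Ccng1 lower in the latter. This made 1 of 8 and 2 of 8 compared genes, where 20.8% and 30.01% of all genes were called.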
